A study of Homo sapiens with 9 samples.

Results

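Cells make cholesterol from acetyl-CoA through the mevalonate pathway, squalene and a series of sterol intermediates. The transcription factor SREBP2 switches on the genes of this route. It is held in the endoplasmic reticulum, bound to its escort SCAP, by the INSIG proteins while sterols are plentiful, and it is released to the Golgi and cut into its active form when sterols run low. INSIG1 is itself an SREBP target, so that the brake on the pathway is made together with its enzymes. The genes described here are 8 cholesterol synthesis genes and SREBP2 targets chosen by symbol: INSIG1, ACAT2, HMGCS1, IDI1, FDFT1, SQLE, SC5D and DHCR7. All probes annotated with 1 of these symbols were taken, which gave 11 probes for 7 of the 8 genes, out of 47231 probes on the array and 22375 probes that were tested. No probe carried the symbol of FDFT1, squalene synthase, and it was not analysed here. INSIG1, ACAT2, SQLE and DHCR7 had 2 probes each and HMGCS1, IDI1 and SC5D had 1 each. All 11 probes were detected above the negative control beads on all 9 arrays.

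Total RNA of HEK293 cells, a line derived from human embryonic kidney, was hybridised to 9 Illumina bead arrays. The AMOT knockdown arrays (n = 3) came from HEK293 cells given an shRNA against Amot, the YAP knockdown arrays (n = 3) from HEK293 cells given an shRNA against Yap, and the control arrays (n = 3) from HEK293 cells labelled wild type. Angiomotin, the product of AMOT, is a junctional scaffold that binds YAP, and YAP is a coactivator of TEAD transcription factors restrained by the Hippo kinases. The study set out to find target genes of both proteins, and its design text describes the arrays of a group as coming from individual experiments. The titles call the shRNA groups knockouts and the design text calls them knockdowns, which is the word used here. No array is labelled as a control hairpin, and the labels name neither the hairpin sequence, the vector nor the number of lines per target. Effects of carrying an shRNA and of lowering its target therefore cannot be told apart in the comparisons with controls. In such bulk RNA, fewer cells of a type and less RNA per cell cannot be told apart.

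Levels below are log2 intensities after background correction and quantile normalization, on which a difference of 1 is a doubling, and they are not comparable between probes. Median unprocessed intensities were between 174.7 and 208.1 on the 9 arrays, and detection ended at a log2 level of 5.77 to 5.99. Probes detected numbered 20827 to 22187 under AMOT knockdown, 20866 to 21709 under YAP knockdown and 19831 to 20397 in controls, so that every knockdown array had more detected probes than every control array. The part of that shift in the results was not tested. AMOT averaged 10.06 under AMOT knockdown and 14.29 in controls (log2 change -4.22, limma adjusted p = 3.8e-08). YAP1 averaged 8.84 under YAP knockdown and 10.66 in controls (log2 change -1.82, limma adjusted p = 3.2e-06). AMOT was also lower under YAP knockdown than in controls (log2 change -0.57, limma adjusted p = 0.0017). Of 8 markers of HEK293 cells, 6 had a named probe, and VIM, KRT8, NEFM, NEFL and INA were detected on all 9 arrays and KRT18 on 5. Of markers of other cells, COL1A1 of fibroblasts and ALB and APOA1 of hepatocytes were detected on all 9 arrays, at group means between 6.05 and 7.83, and LUM of fibroblasts on 5. None of the 3 blood and 3 endothelial markers had a named probe.

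The DNA before 3 of these genes is shown because SREBPs, with the helper factors NF-Y and Sp1, bind such stretches at target genes. The 3 genes also differed in their response. INSIG1 and HMGCS1 had higher levels under YAP knockdown than under AMOT knockdown, and SC5D gave no difference between them that passed the test. Each stretch is the 250 bases before the start of the gene in RefSeq (GRCh38.p14), written 5′ to 3′ on the strand of the gene. The window of INSIG1 lies at chr7:155297628-155297877 on the plus strand, that of HMGCS1 at chr5:43313413-43313662 on the minus strand and that of SC5D at chr11:121292521-121292770 on the plus strand. Capitals mark matches, on either strand, to the E-box-like SREBP site TCANNTGA and to the NF-Y box CCAAT, which reads ATTGG from the other strand.
INSIG1: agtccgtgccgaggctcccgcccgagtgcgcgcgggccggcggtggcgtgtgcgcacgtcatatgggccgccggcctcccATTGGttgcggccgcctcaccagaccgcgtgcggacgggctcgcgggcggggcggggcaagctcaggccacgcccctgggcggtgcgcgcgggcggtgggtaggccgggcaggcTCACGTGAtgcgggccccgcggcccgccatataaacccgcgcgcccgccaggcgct
HMGCS1: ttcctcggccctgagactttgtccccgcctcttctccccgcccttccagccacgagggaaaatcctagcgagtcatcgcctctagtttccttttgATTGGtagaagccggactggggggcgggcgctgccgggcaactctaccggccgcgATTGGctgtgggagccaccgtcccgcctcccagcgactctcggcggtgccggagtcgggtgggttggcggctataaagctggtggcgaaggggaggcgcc
SC5D: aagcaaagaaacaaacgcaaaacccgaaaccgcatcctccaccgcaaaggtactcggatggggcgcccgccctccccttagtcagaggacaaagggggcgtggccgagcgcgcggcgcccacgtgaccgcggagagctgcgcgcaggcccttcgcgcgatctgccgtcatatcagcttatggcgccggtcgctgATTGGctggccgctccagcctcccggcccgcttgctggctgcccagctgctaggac
The window of INSIG1 held TCACGTGA 56 to 49 bases before the start and ATTGG 170 to 166 bases before it. The window of HMGCS1 held ATTGG at 155 to 151 and again at 100 to 96 bases before the start, and that of SC5D held it 56 to 52 bases before the start. Windows were at hand for 5 of the genes, the others being IDI1 and DHCR7. Only the 3 shown held CCAAT, that is 3 of the 5, against 33.4% of all 24882 gene-start windows of the same length. TCANNTGA was found in 1 of the 5 and in 6.39% of all windows. The Sp1 box GGGCGG, searched on both strands and partly overlapping itself in INSIG1, was found in 4 of the 5 and in 41.7% of all. Neither the longer sterol regulatory element TCACNCCAC nor the TEAD site GGAATG matched in any of the 5, and they matched in 0.884% and 12% of all windows. Of 9 windows of sterol synthesis enzymes outside the chosen genes, 8 held CCAAT, 7 held GGGCGG, 1 held TCANNTGA, 2 held GGAATG and none held TCACNCCAC. These letters describe the windows only, and no binding was measured.

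Against controls, the genes did not move as a block in either knockdown. Under AMOT knockdown, 6 of the 11 probes passed the test, 1 higher and 5 lower (ACAT2, DHCR7 and the dimmer INSIG1 probe lower, SC5D higher). Of all tested probes 35.1% passed in the same comparison, 17.6% higher and 17.5% lower. Under YAP knockdown, 6 of the 11 probes passed, 5 higher (INSIG1, SQLE and SC5D) and 1 lower (ACAT2), where 37.3% of all tested probes passed, 18.5% higher and 18.7% lower. Set directly against each other, 8 of the 11 probes were lower under AMOT knockdown than under YAP knockdown and none was higher, where 17.4% of all tested probes passed, 8.61% higher and 8.84% lower. Those 8 probes belong to INSIG1, ACAT2, HMGCS1, SQLE and DHCR7, the last by its dimmer probe only. The arrays of the groups compared did not overlap for 7 of the 11 probes between AMOT knockdown and controls, for 8 between YAP knockdown and controls and for 9 between the knockdowns, beside 46.4%, 48.7% and 37.7% of all tested probes. Genes with 2 probes enter these counts of probes 2 times. By the brighter probe of each gene, 4 of the 7 genes were lower under AMOT than under YAP knockdown and none was higher. Of all named genes 12% were lower and 10.3% higher in that comparison. The median log2 difference of the 7 genes, each by its brighter probe, was -0.09 for AMOT knockdown minus control, 0.22 for YAP knockdown minus control and -0.49 for AMOT knockdown minus YAP knockdown, beside 0.01, 0.03 and -0.02 over all 11493 named genes. Both comparisons with controls use the same 3 control arrays, and the 8 genes were picked with earlier results of these arrays known.

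**Figure D1:**
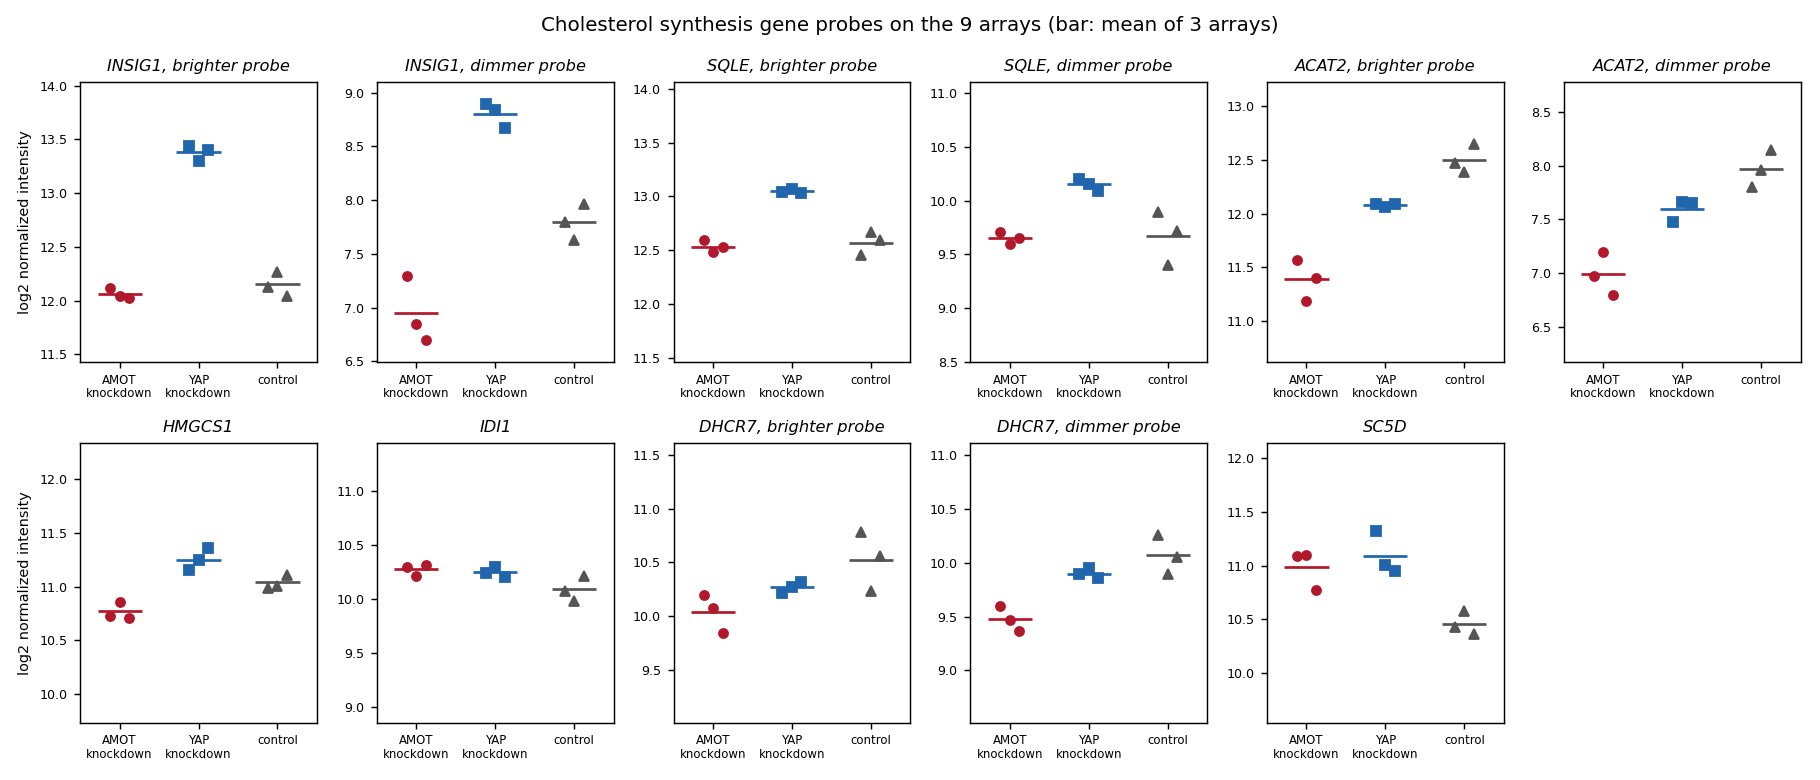
Levels of the 11 probes of 7 cholesterol synthesis genes on each array, as normalized log2 intensity, with the AMOT knockdown, the YAP knockdown and the controls from left to right in each panel; points are arrays and bars are group means. The YAP knockdown points of INSIG1 stand above all others, and the AMOT knockdown points of ACAT2 stand below all others.

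INSIG1 is the membrane protein that keeps the SCAP-SREBP complex in the endoplasmic reticulum when sterols accumulate. It lies on chromosome 7 at 155297878 to 155310235 (GRCh38.p14). Its brighter probe read 12.12, 12.04 and 12.02 under AMOT knockdown, 13.44, 13.30 and 13.40 under YAP knockdown and 12.13, 12.27 and 12.04 in controls. All YAP knockdown arrays stood above all others, and the AMOT knockdown arrays overlapped the controls. The probe was 2.35-fold higher under YAP knockdown than in controls (log2 change 1.23, SE 0.097, limma adjusted p = 2.1e-05). Under AMOT knockdown its log2 change from controls was -0.09 (95% interval -0.31 to 0.13, limma adjusted p = 0.53). Between the knockdowns it was 2.5-fold lower under AMOT knockdown (log2 difference -1.32, SE 0.097, limma adjusted p = 6.1e-05). The dimmer probe read 7.29, 6.85 and 6.70 under AMOT knockdown, 8.89, 8.84 and 8.67 under YAP knockdown and 7.80, 7.63 and 7.96 in controls. On this probe the 3 groups did not overlap, with the controls between the knockdowns. Against controls it gave a log2 change of 1.00 under YAP knockdown (SE 0.16, limma adjusted p = 0.0011) and had a log2 change of -0.85 under AMOT knockdown (SE 0.16, limma adjusted p = 0.0028). Under the alternative settings that fall ran from -1.03 to -0.45. For the AMOT knockdown the INSIG1 probes thus differed in the size of the change, and only the dimmer probe passed the test. The 95% interval of the dimmer probe, -1.21 to -0.49, did not overlap that of the brighter probe, -0.31 to 0.13. The same direction was found by both probes for the YAP knockdown and for the difference between the knockdowns.

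ACAT2, the cytosolic thiolase that joins acetyl-CoA units into acetoacetyl-CoA at the entry to the pathway, had the largest fall of the 7 genes. It lies on chromosome 6 at 159762045 to 159779112. Its brighter probe read 11.57, 11.19 and 11.40 under AMOT knockdown, 12.09, 12.06 and 12.09 under YAP knockdown and 12.47, 12.39 and 12.65 in controls. The groups formed 3 separate levels, lowest under AMOT knockdown and highest in controls. Its level was 2.17-fold lower under AMOT knockdown than in controls (log2 change -1.12, SE 0.12, limma adjusted p = 0.00011) and 1.34-fold lower under YAP knockdown than in controls (log2 change -0.43, SE 0.12, limma adjusted p = 0.018). The call for the YAP knockdown was lost without control replicate 3 (limma adjusted p = 0.064) or YAP knockdown replicate 2 (limma adjusted p = 0.05). Between the knockdowns the log2 difference was -0.69 (SE 0.12, limma adjusted p = 0.0041). The dimmer probe read 6.97, 7.20 and 6.80 under AMOT knockdown, 7.48, 7.66 and 7.65 under YAP knockdown and 7.80, 7.96 and 8.15 in controls. The same order of 3 separate levels was seen. This probe was 1.97-fold lower under AMOT knockdown than in controls (log2 change -0.98, SE 0.13, limma adjusted p = 0.00048), and its log2 change under YAP knockdown was -0.37 (SE 0.13, limma adjusted p = 0.054), which passed in 8 of 20 alternatives. Its change under AMOT knockdown ran from -1.09 to -0.54 over the alternatives.

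HMGCS1, the cytosolic HMG-CoA synthase that makes HMG-CoA on the way to mevalonate, lies on chromosome 5 at 43287470 to 43313412. It read 10.73, 10.86 and 10.71 under AMOT knockdown, 11.15, 11.25 and 11.36 under YAP knockdown and 10.99, 11.01 and 11.11 in controls. The AMOT knockdown arrays were the lowest, the YAP knockdown arrays the highest, and no groups overlapped. It was 1.4-fold lower under AMOT knockdown than under YAP knockdown (log2 difference -0.49, SE 0.096, limma adjusted p = 0.0084). Neither comparison with controls passed the test: the log2 change was -0.27 under AMOT knockdown (SE 0.096, limma adjusted p = 0.055) and 0.22 under YAP knockdown (SE 0.096, limma adjusted p = 0.11). The first of these passed in 6 of 20 alternatives (limma adjusted p = 0.021 to 0.047), the values normalized by the authors among them. 

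IDI1, the isomerase that interconverts the isoprenoid building blocks isopentenyl and dimethylallyl diphosphate, lies on chromosome 10 at 1039152 to 1056704. It read 10.30, 10.21 and 10.32 under AMOT knockdown, 10.24, 10.30 and 10.20 under YAP knockdown and 10.07, 9.98 and 10.21 in controls. The knockdowns overlapped each other, and the lowest arrays of each lay level with the highest control. No comparison passed the test, with log2 changes from controls of 0.19 under AMOT knockdown (95% interval -0.02 to 0.41, limma adjusted p = 0.15) and 0.16 under YAP knockdown (95% interval -0.06 to 0.37, limma adjusted p = 0.22). The difference between the knockdowns was 0.03 (95% interval -0.18 to 0.25, limma adjusted p = 0.87).

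SQLE, squalene monooxygenase, oxidises squalene to its epoxide in a rate-limiting step of the sterol branch. It lies on chromosome 8 at 124998505 to 125022283. Its brighter probe read 12.59, 12.48 and 12.53 under AMOT knockdown, 13.04, 13.07 and 13.03 under YAP knockdown and 12.45, 12.67 and 12.59 in controls. The YAP knockdown arrays stood above all others and the AMOT knockdown arrays lay within the range of the controls. The probe was 1.4-fold higher under YAP knockdown than in controls (log2 change 0.48, SE 0.093, limma adjusted p = 0.003) and 1.43-fold lower under AMOT knockdown than under YAP knockdown (log2 difference -0.51, SE 0.093, limma adjusted p = 0.0055). With median scaling as the normalization the call against controls was lost (limma adjusted p = 0.075). Under AMOT knockdown the log2 change from controls was -0.03 (95% interval -0.24 to 0.18, limma adjusted p = 0.83). The dimmer probe read 9.71, 9.60 and 9.65 under AMOT knockdown, 10.20, 10.15 and 10.09 under YAP knockdown and 9.89, 9.40 and 9.72 in controls. It showed the same order, with a log2 change of 0.47 under YAP knockdown against controls (SE 0.13, limma adjusted p = 0.015) and a log2 difference of -0.49 between the AMOT and YAP knockdowns (SE 0.13, limma adjusted p = 0.026). Without YAP knockdown replicate 1 the first of these had a limma adjusted p of 0.05. The second was lost when any 1 of the 6 knockdown arrays was left out (limma adjusted p = 0.051 to 0.081).

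SC5D and DHCR7 act next to each other near the end of the pathway, and under AMOT knockdown SC5D was higher and DHCR7 lower than in controls. SC5D, the sterol desaturase that makes the substrate of DHCR7, lies on chromosome 11 at 121292771 to 121313410. It read 11.09, 11.10 and 10.77 under AMOT knockdown, 11.32, 11.01 and 10.95 under YAP knockdown and 10.43, 10.58 and 10.36 in controls. All 6 knockdown arrays stood above the controls and the knockdowns overlapped each other. It was 1.45-fold higher under AMOT knockdown than in controls (log2 change 0.53, SE 0.14, limma adjusted p = 0.013) and 1.56-fold higher under YAP knockdown than in controls (log2 change 0.64, SE 0.14, limma adjusted p = 0.0051). The first of these calls was lost under median scaling (log2 change 0.42, limma adjusted p = 0.089). The log2 difference between the AMOT and YAP knockdowns was -0.10 (95% interval -0.41 to 0.20, limma adjusted p = 0.67).

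DHCR7, the reductase that turns 7-dehydrocholesterol into cholesterol and whose loss causes Smith-Lemli-Opitz syndrome, lies on chromosome 11 at 71427287 to 71449043. Its dimmer probe read 9.60, 9.47 and 9.37 under AMOT knockdown, 9.90, 9.95 and 9.86 under YAP knockdown and 10.26, 9.90 and 10.06 in controls. The AMOT knockdown arrays were below all others, and the YAP knockdown arrays overlapped the controls. This probe was 1.51-fold lower under AMOT knockdown than in controls (log2 change -0.60, SE 0.11, limma adjusted p = 0.0032), and its log2 change under YAP knockdown was -0.17 (SE 0.11, limma adjusted p = 0.27). Between the AMOT and YAP knockdowns its log2 difference was -0.42 (limma adjusted p = 0.032), a call lost without AMOT knockdown replicate 2 or 3 or any 1 of the YAP knockdown arrays (limma adjusted p = 0.063 to 0.096). The brighter probe read 10.20, 10.08 and 9.84 under AMOT knockdown, 10.22, 10.27 and 10.32 under YAP knockdown and 10.78, 10.23 and 10.56 in controls. Here too the AMOT knockdown held the lowest arrays, while control replicate 2 lay among the YAP knockdown arrays. Its log2 change under AMOT knockdown was -0.48 (SE 0.15, limma adjusted p = 0.031). That call was lost without control replicate 1 or 3 or AMOT knockdown replicate 2 or 3 (limma adjusted p = 0.061 to 0.095). Under YAP knockdown its log2 change was -0.25 (limma adjusted p = 0.22).

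**Figure D2:**
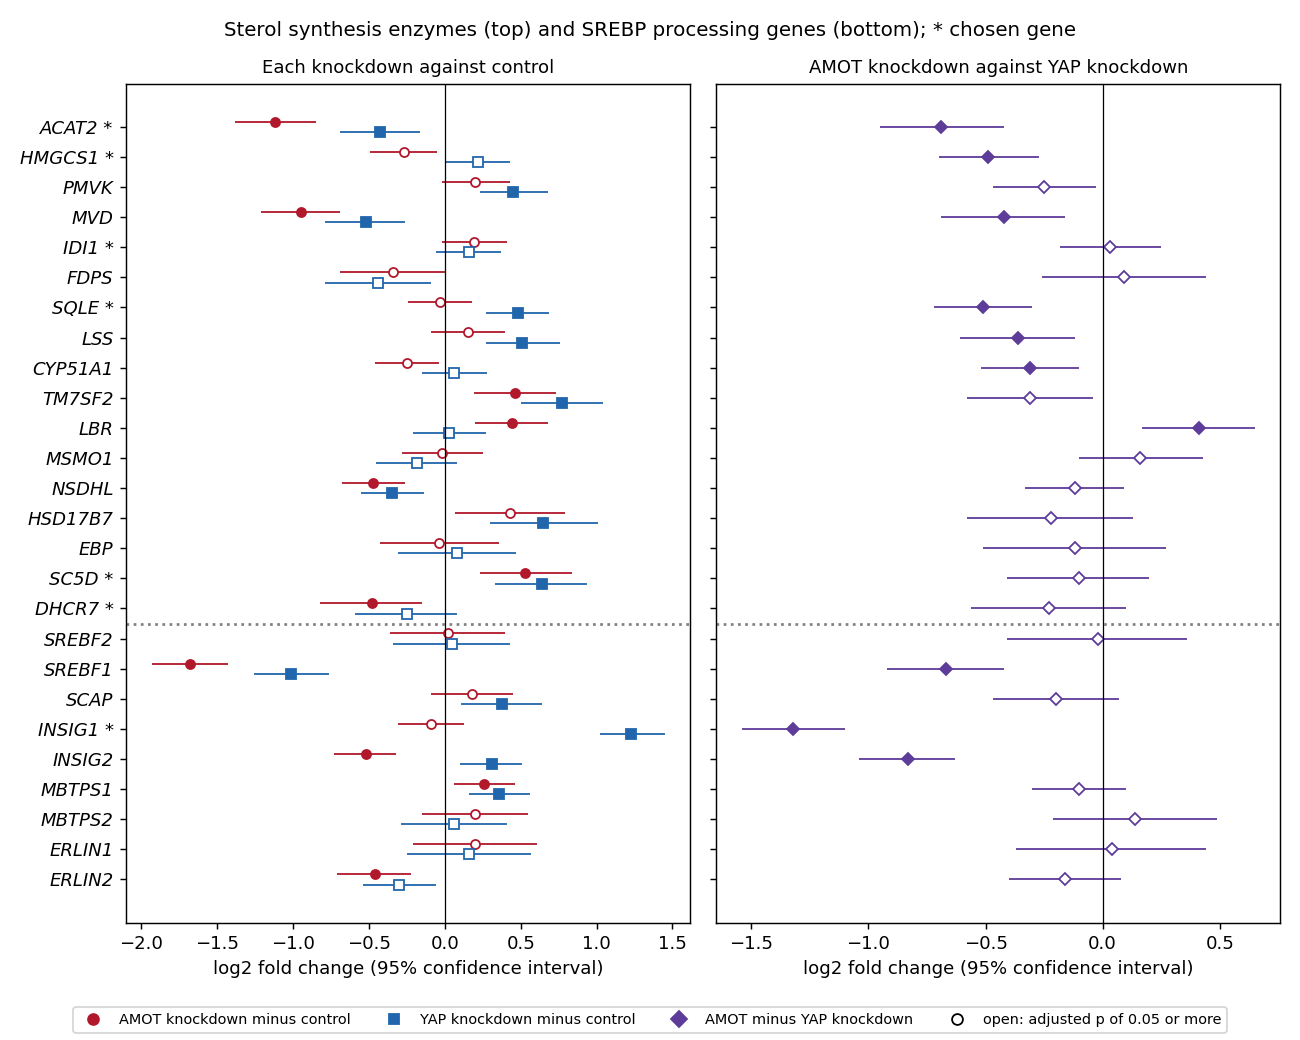
Log2 change of each measured sterol synthesis enzyme and SREBP regulator, in pathway order, for AMOT knockdown minus control and YAP knockdown minus control (left) and AMOT knockdown minus YAP knockdown (right); bars are 95% confidence intervals of the limma fit with 3 arrays per group, open points had an adjusted p of 0.05 or more, and stars mark the chosen genes. Each gene is drawn by its brightest probe. ACAT2, MVD, NSDHL and SREBF1 passed below 0 in both comparisons with controls. INSIG1 and SQLE lie above 0 under YAP knockdown and close to 0 under AMOT knockdown, where the dimmer INSIG1 probe, not drawn, had -0.85.

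Centred on their means over the 9 arrays, the brighter probes of the 7 genes averaged -0.14, -0.23 and -0.28 under AMOT knockdown, 0.27, 0.24 and 0.25 under YAP knockdown and -0.04, -0.07 and -0.01 in controls. Within that mean, pairs of genes differed in how they ran together over the 9 arrays. INSIG1 and SQLE had a Pearson correlation of 0.97, INSIG1 and HMGCS1 of 0.80, SQLE and HMGCS1 of 0.78, and ACAT2 and DHCR7 of 0.79. SC5D ran against ACAT2 (-0.62) and against DHCR7 (-0.56). These correlations are a description of 9 arrays that fall in 3 groups, and they hold the differences between groups. Outside the genes and lists described here, TMEM100 (0.988), FARP1 (0.987), KIF1B (0.983), UBAC2 (0.978) and RHOT1 (0.978) had the highest correlations with the mean of the 7 genes over the 9 arrays. EFEMP2 (0.99), PDK3 (0.99) and TP53INP1 (0.989) had the highest with INSIG1. They are the top of a search over all other named genes, and their correlations also hold the differences between the 3 groups. Shared regulation with the chosen genes was not tested.

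Enzymes of the whole route were found on both sides of 0. Of 21 sterol synthesis enzymes, 17 had a tested probe, 6 of them described above. Under AMOT knockdown 3 were higher than in controls (SC5D, TM7SF2 and LBR), 4 were lower (ACAT2, MVD, NSDHL and DHCR7) and 10 did not pass, with a median log2 change of -0.03. Over all named genes 41% passed, 22% higher and 19% lower, with a median of 0.01. Under YAP knockdown 6 were higher (PMVK, SQLE, LSS, TM7SF2, HSD17B7 and SC5D), 3 were lower (ACAT2, MVD and NSDHL) and 8 did not pass, with a median of 0.08. Over all named genes 44.2% passed, 24.3% higher and 19.9% lower, with a median of 0.03. Between the AMOT and YAP knockdowns 1 was higher (LBR), 6 were lower (ACAT2, HMGCS1, MVD, SQLE, LSS and CYP51A1) and 10 did not pass, with a median of -0.23, where over all named genes 22.3% passed, 10.3% higher and 12% lower, with a median of -0.02. Without the chosen genes, 11 enzymes were tested: 2 were higher and 2 lower under AMOT knockdown, 4 higher and 2 lower under YAP knockdown, and between the knockdowns 1 was higher and 3 were lower.

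MVD, which decarboxylates mevalonate diphosphate, had log2 changes from controls of -0.95 under AMOT knockdown (limma adjusted p = 0.00027) and -0.52 under YAP knockdown (limma adjusted p = 0.0064), the second lost under median scaling (limma adjusted p = 0.11). In the values normalized by the authors the changes of MVD were -0.50 and -0.29. NSDHL, a dehydrogenase of sterol demethylation, had -0.47 under AMOT knockdown (limma adjusted p = 0.0038) and -0.35 under YAP knockdown (limma adjusted p = 0.016). The second of these was lost without control replicate 3 (limma adjusted p = 0.055) or under median scaling (limma adjusted p = 0.1). These genes, like ACAT2, were therefore lower in both knockdowns. TM7SF2, a sterol reductase, had log2 changes of 0.46 under AMOT knockdown (limma adjusted p = 0.015) and 0.77 under YAP knockdown (limma adjusted p = 0.001), the first lost without AMOT knockdown replicate 1 or 2 (limma adjusted p = 0.05 to 0.056). PMVK, which phosphorylates mevalonate phosphate, had 0.20 under AMOT knockdown (limma adjusted p = 0.14) and 0.45 under YAP knockdown (limma adjusted p = 0.0056). LSS, which closes the sterol ring, had 0.15 under AMOT knockdown (limma adjusted p = 0.31) and 0.51 under YAP knockdown (limma adjusted p = 0.0048). A dim second LSS probe was not detected in controls and entered the test only through the knockdown arrays, so its calls against controls add no support. On the background-corrected scale it was at least 1.32-fold higher under AMOT knockdown and at least 1.3-fold higher under YAP knockdown, as the group mean against the limit of detection. The log2 difference of this probe between the AMOT and YAP knockdowns was 0.02 (limma adjusted p = 0.96). HSD17B7, another enzyme of sterol demethylation, had 0.43 under AMOT knockdown (limma adjusted p = 0.062) and 0.65 under YAP knockdown (limma adjusted p = 0.01). These 4 genes had positive log2 changes in both knockdowns. The lower levels under AMOT than under YAP knockdown of MVD, LSS and CYP51A1, the lanosterol demethylase, were close to the threshold (limma adjusted p = 0.034, 0.047 and 0.049). Each was lost without any 1 of the AMOT knockdown arrays or YAP knockdown replicate 1 or 3, and those of LSS and CYP51A1 also without YAP knockdown replicate 2 or control replicate 3 (limma adjusted p = 0.05 to 0.14 in these fits). That of MVD was also lost in 7 other settings, the values normalized by the authors among them (limma adjusted p = 0.061 to 0.11). LSS was lost under cyclic loess normalization and without a filter on dim probes (limma adjusted p = 0.055 to 0.087). CYP51A1 was lost under median scaling, without that filter and with a replicate block (limma adjusted p = 0.082 to 0.11).

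LBR, the lamin B receptor with sterol reductase activity, had 2 probes that differed. Its brighter probe had a log2 change of 0.44 under AMOT knockdown (limma adjusted p = 0.011), lost under median scaling (limma adjusted p = 0.25), and 0.03 under YAP knockdown. Its other probe had 0.16 under AMOT knockdown and -0.55 under YAP knockdown (limma adjusted p = 0.021). Both were higher under AMOT than under YAP knockdown, by log2 differences of 0.41 (limma adjusted p = 0.029) and 0.71 (limma adjusted p = 0.014). The first of these was lost without AMOT knockdown replicate 1 or 3 or any 1 of the YAP knockdown arrays (limma adjusted p = 0.055 to 0.095), and under median scaling (limma adjusted p = 0.4).

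Of 9 genes of SREBP processing and sterol sensing, all had a tested probe. Under AMOT knockdown 1 was higher than in controls (MBTPS1), 3 were lower (SREBF1, INSIG2 and ERLIN2) and 5 did not pass. Under YAP knockdown 4 were higher (INSIG1, INSIG2, SCAP and MBTPS1), 1 was lower (SREBF1) and 4 did not pass. Of all named genes 41% and 44.2% passed in these comparisons, so the list's shares lay near the background. Under YAP knockdown ERLIN2 did not pass by its brightest probe (log2 change -0.30, limma adjusted p = 0.052). Its dimmer probes passed as lower there (log2 changes -0.81 and -0.82, limma adjusted p = 0.01 and 0.033). INSIG2, the partner of INSIG1 in holding SCAP, read 9.28, 9.44 and 9.24 under AMOT knockdown, 10.14, 10.17 and 10.15 under YAP knockdown and 9.88, 9.78 and 9.88 in controls. Its groups did not overlap and had the order of the dimmer INSIG1 probe. It was 1.44-fold lower under AMOT knockdown than in controls (log2 change -0.52, SE 0.091, limma adjusted p = 0.0019) and 1.24-fold higher under YAP knockdown than in controls (log2 change 0.31, limma adjusted p = 0.025). The call for the YAP knockdown was lost without control replicate 2 or any 1 of the YAP knockdown arrays, and under median scaling (limma adjusted p = 0.057 to 0.068). Between the AMOT and YAP knockdowns INSIG2 was 1.78-fold lower (log2 difference -0.83, limma adjusted p = 0.00045).

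SREBF2, which encodes SREBP2 itself, lay close to the limit of detection, with means of 6.09 under AMOT knockdown, 6.12 under YAP knockdown and 6.07 in controls, and it was detected on 2 of the 3 control arrays. Its log2 changes of 0.02 and 0.05 did not pass (limma adjusted p = 0.94 and 0.86), with 95% intervals of -0.36 to 0.40 and -0.34 to 0.43, and so close to the limit a fall could not have been seen. SREBF1, which encodes the related SREBP1 of fatty acid synthesis, read 8.31, 8.30 and 8.32 under AMOT knockdown, 8.96, 8.85 and 9.13 under YAP knockdown and 10.12, 9.82 and 10.02 in controls. The groups formed 3 separate levels in the order of ACAT2. SREBF1 was 3.2-fold lower under AMOT knockdown than in controls (log2 change -1.68, SE 0.11, limma adjusted p = 8.7e-06) and 2.01-fold lower under YAP knockdown (log2 change -1.01, SE 0.11, limma adjusted p = 0.00013). Its second probe had log2 changes of -1.44 and -1.07. SREBF1 lies on chromosome 17 at 17811334 to 17836986, and in a window set after its values were seen, 15 of the 23 tested genes within 1 Mb of it were also lower under AMOT knockdown and none was higher (median log2 change -0.61). Under YAP knockdown 6 of the 23 were lower and 3 were higher (median -0.09). Over all named genes 19% were lower and 22% higher under AMOT knockdown. In the same window around ACAT2, 4 of 11 tested genes were lower under AMOT knockdown and none was higher (median -0.29). Neighbours were higher and none was lower around INSIG1 (4 of 6, median 0.62), HMGCS1 (6 of 9, median 0.49) and IDI1 (4 of 6, median 0.64). Around the other 4 chosen genes and SREBF2 the medians under AMOT knockdown were between -0.15 and 0.22. The part of neighbouring genes in these results was not tested. SCAP, the escort of SREBPs, had a log2 change of 0.38 under YAP knockdown (limma adjusted p = 0.032), and MBTPS1, the first of the proteases that free SREBP, had 0.26 under AMOT knockdown (limma adjusted p = 0.045) and 0.36 under YAP knockdown (limma adjusted p = 0.011). The second MBTPS1 probe had 0.18 and 0.17 and passed in neither (limma adjusted p = 0.22 and 0.25). The call of SCAP was lost in 8 of 20 alternative fits and that of MBTPS1 under AMOT knockdown in 13 (limma adjusted p = 0.05 to 0.093 for SCAP without control replicate 2 or 3 or any 1 of the YAP knockdown arrays, and 0.06 to 0.14 for MBTPS1 without any 1 array other than AMOT knockdown replicate 1). MBTPS1 under YAP knockdown was lost under median scaling (limma adjusted p = 0.13).

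Around the synthesis genes, LRP8 and STARD4, of sterol uptake and transport, were lower in both knockdowns, and APOE and NR1H3, of sterol efflux, were higher in both. Of 9 genes of uptake and other SREBP2 targets, 5 were tested. Under AMOT knockdown 1 of the 5 was higher, 3 were lower and 1 did not pass, and under YAP knockdown 2 were higher, 2 were lower and 1 did not pass, beside 41% and 44.2% of all named genes that passed. LRP8, a receptor for apolipoprotein E and reelin, read 7.50, 7.62 and 7.50 under AMOT knockdown, 7.83, 7.73 and 8.21 under YAP knockdown and 9.11, 9.12 and 9.25 in controls. All 6 knockdown arrays stood below the controls. LRP8 was 3.07-fold lower under AMOT knockdown (log2 change -1.62, SE 0.13, limma adjusted p = 2.6e-05) and 2.35-fold lower under YAP knockdown (log2 change -1.23, limma adjusted p = 0.00011). STARD4, a cytosolic sterol carrier, had log2 changes of -1.06 under AMOT knockdown (limma adjusted p = 0.0025) and -0.58 under YAP knockdown (limma adjusted p = 0.041). The second call was lost in 10 of 20 alternatives. These were fits without control replicate 1 or 2, AMOT knockdown replicate 1 or any 1 of the YAP knockdown arrays (limma adjusted p = 0.051 to 0.13). The others were median scaling, cyclic loess normalization, no filter on dim probes and a replicate block (limma adjusted p = 0.052 to 0.16). In the values normalized by the authors the changes of STARD4 were -0.56 and -0.33. NPC1L1, an intestinal cholesterol importer, was not detected in controls and entered the test only through the knockdown arrays. Its calls as higher in both knockdowns, which are part of the counts above, therefore add no support. It was at least 1.94-fold higher under AMOT knockdown and at least 1.96-fold higher under YAP knockdown, as the group mean against the limit of detection. Without background correction its fitted log2 changes were 0.58 and 0.59, which lie below those bounds, so the bounds hold only on the background-corrected scale. TMEM97, the sigma receptor that binds NPC1, had a log2 change of 0.40 under YAP knockdown (limma adjusted p = 0.0066) and a log2 difference of -0.67 between the AMOT and YAP knockdowns (limma adjusted p = 0.0012), the first lost under median scaling (limma adjusted p = 0.12). Its log2 change under AMOT knockdown was -0.27 (limma adjusted p = 0.045), a call lost in 12 of 20 alternatives, 8 of them fits without 1 array, namely any but AMOT knockdown replicate 3 (limma adjusted p = 0.055 to 0.13). The second TMEM97 probe passed in no comparison.

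Of 9 genes of the LXR response and sterol efflux, which is switched on by oxysterols when cholesterol is plentiful, 6 were tested. In each knockdown 4 were higher than in controls, none was lower and 2 did not pass, with median log2 changes of 0.74 under AMOT knockdown and 0.80 under YAP knockdown. Over all named genes 22% and 24.3% were higher. APOE, a lipoprotein component that carries cholesterol out of cells, read 8.57, 8.83 and 8.72 under AMOT knockdown, 8.99, 8.96 and 8.96 under YAP knockdown and 6.39, 6.67 and 6.29 in controls. All 6 knockdown arrays lay far above the controls, which were near the limit of detection. It was 4.78-fold higher under AMOT knockdown (log2 change 2.26, SE 0.12, limma adjusted p = 3e-06) and 5.75-fold higher under YAP knockdown (log2 change 2.52, limma adjusted p = 1.3e-06). In the values that the authors had normalized, its log2 changes were 1.28 and 1.48. Of the hepatocyte markers, APOA1 averaged 7.82 under AMOT knockdown, 7.83 under YAP knockdown and 6.92 in controls, and passed in both comparisons (limma adjusted p = 0.0037 and 0.0033). ALB averaged 7.08, 6.20 and 6.36 in the same order and passed under AMOT knockdown (limma adjusted p = 0.013). Their part in the efflux results was not tested. NR1H3, which encodes the oxysterol receptor LXR alpha, read 9.88, 9.88 and 9.87 under AMOT knockdown, 9.94, 10.06 and 9.89 under YAP knockdown and 8.71, 8.59 and 8.54 in controls. Again all knockdown arrays were above the controls. It was 2.4-fold higher under AMOT knockdown (log2 change 1.26, limma adjusted p = 1.4e-05) and 2.55-fold higher under YAP knockdown (log2 change 1.35, limma adjusted p = 9.9e-06). ABCA1, the transporter that loads cholesterol onto apolipoproteins, read 8.62, 8.70 and 8.89 under AMOT knockdown, 9.33, 9.09 and 9.33 under YAP knockdown and 8.36, 8.65 and 8.35 in controls. The YAP knockdown arrays were above all others and the AMOT knockdown overlapped the controls. Its log2 change was 0.28 under AMOT knockdown (limma adjusted p = 0.11) and 0.79 under YAP knockdown (limma adjusted p = 0.0011). The 3 probes of ABCG1, another efflux transporter, did not move together. Its brightest had log2 changes of 0.95 and 0.81 in the AMOT and YAP knockdowns (limma adjusted p = 0.0064 and 0.014), the second with a limma adjusted p of 0.05 without YAP knockdown replicate 2. Another ABCG1 probe had -1.88 under AMOT knockdown (limma adjusted p = 4.1e-05) and 0.23 under YAP knockdown. The third ABCG1 probe was not detected under AMOT knockdown and entered the test only through the other groups. On the background-corrected scale it was at least 1.75-fold lower under AMOT knockdown than in controls, as the limit of detection against the control mean. ABCG1, counted as higher by its brightest probe, therefore had no settled direction under AMOT knockdown.

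**Figure D3:**
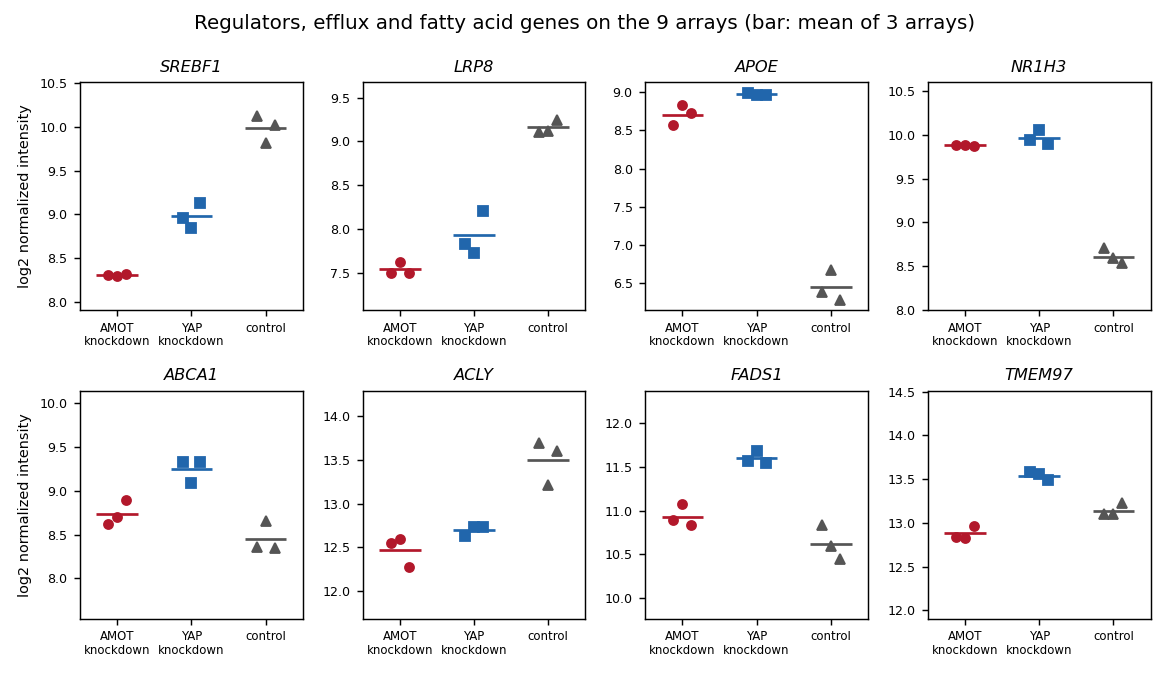
Normalized log2 intensity of 8 genes around the route, by their brightest probes, on the AMOT knockdown, YAP knockdown and control arrays from left to right; points are arrays and bars are means of 3 arrays. Knockdown arrays lie below the controls for SREBF1, LRP8 and ACLY and above them for APOE and NR1H3, and for ABCA1 and FADS1 the YAP knockdown stands highest.

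Further lists cover the handling of cholesterol and its neighbouring routes. Of 10 genes of cholesterol trafficking and storage 9 were tested, of which 1 was higher and 2 were lower under AMOT knockdown, and 6 were higher and 1 was lower under YAP knockdown, with median log2 changes of 0.05 and 0.36. For this and the next 3 lists the shares of all named genes that passed were 41% under AMOT knockdown and 44.2% under YAP knockdown. NPC2, which carries cholesterol inside the lysosome, had log2 changes of 0.60 under AMOT knockdown (limma adjusted p = 0.00073) and 0.80 under YAP knockdown (limma adjusted p = 0.00013). STARD3, a sterol transporter of late endosomes, had -0.09 under AMOT knockdown and 0.58 under YAP knockdown (limma adjusted p = 0.012), and the difference between them passed (log2 difference -0.68, limma adjusted p = 0.013). Over the alternatives these changes of STARD3 ran from 0.37 to 0.73 and from -0.81 to -0.42. Of 13 fatty acid synthesis genes driven by SREBP1, 12 were tested, of which 3 were higher and 5 lower under AMOT knockdown and 4 were higher and 3 lower under YAP knockdown. ACLY, which supplies cytosolic acetyl-CoA to fatty acid and sterol synthesis, had log2 changes of -1.03 under AMOT knockdown (limma adjusted p = 0.00055) and -0.80 under YAP knockdown (limma adjusted p = 0.002). FADS1, a fatty acid desaturase, had 0.31 under AMOT knockdown (limma adjusted p = 0.073) and 0.98 under YAP knockdown (limma adjusted p = 0.00024). Fatty acid genes thus stood on both sides of 0.

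Of 8 genes that degrade SQLE and other sterol synthesis proteins, 5 were tested, with 2 higher and 1 lower under AMOT knockdown and 3 higher and 2 lower under YAP knockdown. VCP, the ATPase that pulls such proteins from the membrane, had log2 changes of -0.88 under AMOT knockdown (limma adjusted p = 0.00016) and -0.91 under YAP knockdown (limma adjusted p = 0.00013). MARCHF6, the ubiquitin ligase of SQLE, had 0.42 under AMOT knockdown (limma adjusted p = 0.047) and 0.55 under YAP knockdown (limma adjusted p = 0.015), and its other 2 probes passed in neither comparison. Both MARCHF6 calls were lost without control replicate 3 or YAP knockdown replicate 1, and under median scaling, and the first also without any 1 other array except control replicate 2 (limma adjusted p = 0.051 to 0.38 in these fits). Of 11 genes of the isoprenoid branch, which leaves the route before squalene, 10 were tested, with 2 higher and 2 lower under AMOT knockdown and 1 higher and 4 lower under YAP knockdown. GGPS1, which makes geranylgeranyl diphosphate, had log2 changes of 0.82 under AMOT knockdown (limma adjusted p = 0.00016) and 0.37 under YAP knockdown (limma adjusted p = 0.011). Its difference between the AMOT and YAP knockdowns was 0.45 (limma adjusted p = 0.0098), the opposite direction to ACAT2, HMGCS1 and SQLE. That difference and the call for the YAP knockdown were lost under median scaling (limma adjusted p = 0.21 and 0.11).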

How the data were processed

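The authors deposited an unnormalized intensity for each of 47231 probes on 9 arrays, and per the file headers a detection p-value beside each. The scanning software is not given in the sources used here. Intensity values of 20062 probes that the authors had normalized by an unstated method served as an alternative. Signals were background-corrected with the normal-exponential model using the detection p-values (offset 16), normalized by quantiles and log2-transformed (limma 3.58.1, R 4.3.3). Probes with a detection p under 0.05 on at least 3 of 9 arrays were tested in 1 linear model of 3 groups with moderated variances. Tests were two-sided, p-values were Benjamini-Hochberg adjusted over all 22375 probes within a comparison, and the threshold was 0.05. They measure the spread between 3 arrays per group, and that number limits the precision. Errors are standard errors of the fit.

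Symbols came from GEO's platform annotation: 15467 probes had 1 symbol and 4 had several, and 31.8% of tested probes had none. Lists used each gene's brightest probe. A probe not detected on any array of a group gave an "at least" fold. Positions and promoter windows came from RefSeq (GRCh38.p14). The 8 genes and all lists were chosen with earlier results of these data known. Every probe of the 8 genes was named, any enzyme or SREBP processing gene could be named, and of each other list up to 5 genes passing the test with the largest change. No arrays were identical. The calculation was tested on simulated data. Alternatives covered background, normalization, offset, filter, the deposited normalized values, model, variance moderation and each array left out.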

Additional observations from a re-analysis of the deposited data

How the results depend on the processing

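In 20 alternative fits no probe of the chosen genes that passed the test turned its direction. Passing probes of these genes numbered 5 to 7 of 11 for AMOT knockdown minus control, 5 to 7 for YAP knockdown minus control and 6 to 8 for AMOT knockdown minus YAP knockdown. INSIG1 in the YAP knockdown and between the knockdowns (both probes), ACAT2 in the AMOT knockdown (both probes), HMGCS1 between the knockdowns and SC5D in the YAP knockdown passed in all 20. So did ACAT2 (both probes) and the brighter SQLE probe between the knockdowns, and the dimmer INSIG1 and DHCR7 probes in the AMOT knockdown. DHCR7 in the AMOT knockdown by its brighter probe was also lost without a filter on dim probes (adjusted p = 0.057) and with only the 2 groups in the fit (adjusted p = 0.065), and its dimmer probe between the knockdowns without a filter (adjusted p = 0.059). Over all probes, median scaling gave 2478 lower beside 3803 higher in the YAP knockdown, against 4191 lower beside 4147 higher with quantile normalization. For AMOT knockdown minus YAP knockdown it gave 2390 called, 863 higher and 1527 lower, against 3904 called, 1926 higher and 1978 lower. With 1 array left out, that comparison called 2469 to 4052 probes, 1211 to 2008 higher and 1205 to 2044 lower. The causes were not tested. Same-numbered arrays of different groups had correlations of their deviations between -0.131 and 0.099, and in 6 of 18 cases an array correlated best with its own number. No pairing by number was seen in these values. Whether same-numbered arrays were handled together was not tested. With the replicate block, 7233, 7837 and 3304 probes passed in the 3 comparisons, and 6, 6 and 8 of the 11 probes. Signals near the limit of detection, as for SREBF2, limit what can be seen.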
